A study of Bos taurus with 24 samples.

Results

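The 10 follicles compared here were the INHBA-high and the INHBA-low ones among 16 large bovine ovarian follicles, 5 in each group, and the question was which other genes differed between them. Total RNA had been taken from the largest follicle of each of 16 heifers, with diameters of 8 to 12 mm, and was hybridised to 24 two-colour arrays that each carried 2 follicles. Every follicle was on 3 arrays. The series title names the selection of the dominant follicle as its subject. Age, breed, treatment, stage and dominance status are not in the labels, which name a follicle only by an identifier, and the follicle layers in the RNA are not given. All 16 follicles share this description, so the groups rest on the measured RNA alone.

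INHBA encodes the beta A subunit, which forms activin A as a dimer and inhibin A together with the alpha subunit INHA. FST encodes follistatin, a secreted protein that binds activin and keeps it from its receptors. Both are made by the granulosa cells that line the follicle. Activin signals through SMAD2 and SMAD3, which act with SMAD4, while inhibin released into the blood lowers FSH secretion by the pituitary. In growing cattle follicles, granulosa cells are also the main source of oestradiol through aromatase (CYP19A1), and the surrounding theca holds blood vessels, stromal cells and leukocytes.

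The groups were chosen as follows. Each array was centred on its median, the features of a gene were averaged, and a level was estimated for each follicle, on the log2 scale relative to the mean of the 16 follicles. Follicle J980, which stood far below the others at -2.69 ± 0.17 for INHBA and -2.05 ± 0.10 for FST (SE, 3 arrays), was left out. The other 15 were ranked by the mean level of INHBA and FST, and the top 5, the middle 5 and the bottom 5 were taken. The groups were thus selected on the measured levels of INHBA and FST, whose values are a description that was not tested.

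INHBA stood at 1.04, 0.80, 0.52, 0.47 and 0.49 in the INHBA-high follicles 861, C12, 46, C35 and 8. In the INHBA-low follicles C32, 33, C10, C26 and 26 it stood at -0.12, -0.30, -0.06, -0.24 and -0.55. The group means were 0.66 ± 0.25 and -0.25 ± 0.19 (SD, n = 5 each), 0.92 apart. FST stood at 1.11, 0.21, 0.44, 0.35 and 0.32 in the INHBA-high follicles and at -0.06, 0.05, -0.45, -0.27 and -0.69 in the INHBA-low ones, in the same order of follicles, which is kept throughout. Its group means were 0.77 apart, and follicle 861 was alone in having an FST level far above the rest of its group.

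The boundaries between the groups were narrow. The last INHBA-high follicle, 8, had a mean of both genes of 0.40, and the first of the middle follicles, 31, had 0.22. The last of the middle follicles, C22, had 0.08 and the first INHBA-low follicle, C32, had -0.09, when the SE of a level was 0.15 to 0.17 for INHBA and 0.09 to 0.10 for FST. Ranking by INHBA alone gave the same 10 follicles, and ranking by FST alone replaced C12 with follicle 27. INHBA and FST had 1 feature each on the array.

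**Figure D1:**
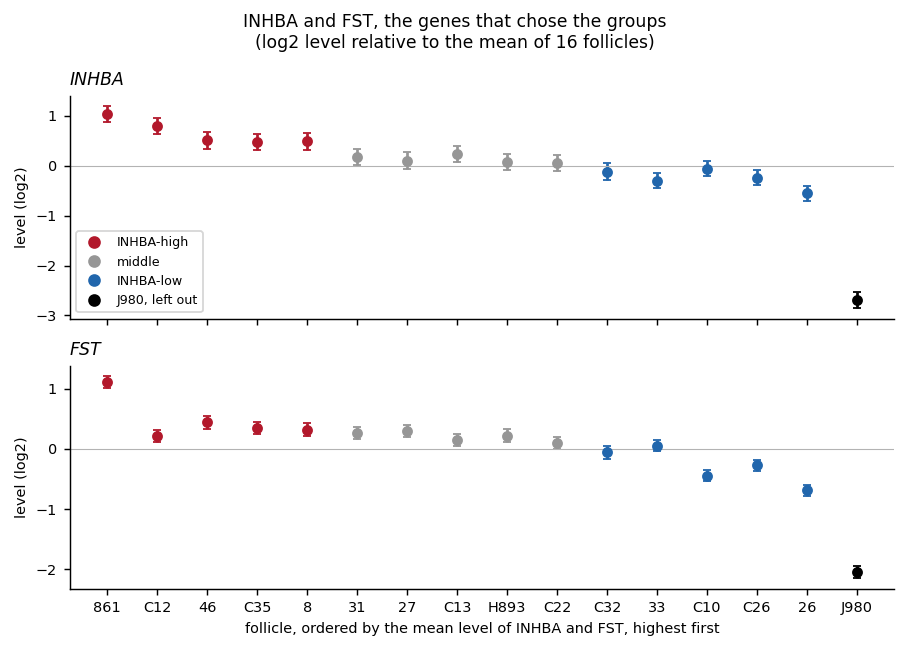
Levels of INHBA (upper panel) and FST (lower panel) in each of the 16 follicles, on the log2 scale relative to their mean, ordered by the mean of both genes; points are estimates, bars are the SE over 3 arrays and colours are the groups. INHBA-high follicles sit between 0.47 and 1.04 for INHBA, INHBA-low follicles between -0.55 and -0.06, and J980, which was left out, at -2.69.

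The groups were balanced on the arrays. INHBA-high follicles were labelled with Cy5 on 7 of their 15 places and so were INHBA-low follicles, and 2 of the 5 INHBA-high and 3 of the 5 INHBA-low identifiers begin with the letter C, whose meaning the labels do not give. There were 4 arrays that carried 1 follicle of each group, with the INHBA-high follicle in Cy5 on 2 of them. The deposited values are log ratios whose direction is likely Cy5 over Cy3 but is not stated. With the inverse ratio all levels would change sign and the follicles of the groups would trade places, while every difference between INHBA-high and INHBA-low follicles given here would stay as it is.

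No gene passed the test of the difference. Of 9029 genes other than INHBA and FST, 0 (0%) differed at an adjusted p under 0.05 in limma with Benjamini-Hochberg adjustment, and the smallest adjusted p was 0.257. The error in this test is the spread of the fitted levels between follicles of different heifers, pooled over the 3 groups. It includes the array error of each level, whose median SE was 0.13, against a median SE of 0.097 for the difference. The levels come from shared arrays, and the test treats them as independent. At an unadjusted p under 0.05 there were 943 genes (10.4%), of which 480 (5.32%) were higher and 463 (5.13%) lower in INHBA-high follicles. In 158 genes (1.75%) the groups did not overlap, with all INHBA-high follicles above all INHBA-low ones in 91 (1.01%) and below them in 67 (0.742%). The median difference over all genes was 0.01 on the log2 scale.

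Other ways of testing gave some calls. When only array error was counted, which compares these RNA samples and says nothing of other heifers, the group means differed in 462 genes (5.12%), 245 higher (2.71%) and 217 lower (2.4%). When gene levels were regressed on the mean of INHBA and FST over all 15 follicles, 6 genes passed, each with a limma adjusted p of 0.0485. They were BMP7, SMAD2, ST3GAL4, BEX5 and TBC1D8 with positive slopes and PRPF4 with a negative one. Without follicle C35, 15 genes passed, and these included BMP7, SMAD2, SERPING1, C1S, TMEM100, PTGDS, CD74 and BCL2L1; leaving out any other of the 10 follicles gave 0. All values below are therefore differences between follicles that did not pass in the comparison of groups, unless one of these other fits is named.

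In the activin, inhibin and BMP pathway, BMP7 and SMAD2 had the smallest p. BMP7, a bone morphogenetic protein, stood at 0.59, 0.55, 0.56, 0.05 and 0.33 in INHBA-high follicles, against -0.0031, -0.07, -0.03, -0.13 and -0.50 in INHBA-low follicles. All INHBA-high follicles were above all INHBA-low ones, with C35 closest to the INHBA-low range. The difference was 0.56 ± 0.11 (SE; limma adjusted p = 0.257), and the slope on INHBA and FST was 0.65 ± 0.10. On the 4 arrays that carried a follicle of each group, the ratio of the INHBA-high to the INHBA-low follicle was above 0 each time, from 0.27 for 8 over C32 to 0.65 for C35 over 26. These arrays are among those from which the levels were fitted, so such ratios, here and below, show the data again and are no separate evidence.

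SMAD2, the signal transducer of activin, had a smaller difference. Its levels were 0.29, 0.12, 0.13, -0.06 and 0.24 in INHBA-high follicles, against -0.16, -0.08, -0.29, -0.17 and -0.37 in INHBA-low follicles. The groups did not overlap, although C35 and follicle 33 came within a few hundredths of each other. The difference was 0.36 ± 0.07 (limma adjusted p = 0.257), its 3 features differed by 0.16 to 0.54, all in the same direction, and the slope was 0.41 ± 0.07. The ratios on the 4 shared arrays ranged from 0.22 to 0.56.

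Of the 43 genes listed for this pathway 24 were measured, and the list as a whole had no common direction. There were 10 members higher and 14 lower in INHBA-high follicles, with a median difference of -0.02 against 0.01 for all genes. At an unadjusted p under 0.05, 5 were higher (BMP7, SMAD2, SMAD4, AMHR2 and AMH, 20.8% against 5.32% of all genes). FSTL1, a follistatin-like secreted protein, was the 1 member lower by this measure (4.17% against 5.13% of all genes). Its difference was -0.89 ± 0.26 (limma adjusted p = 0.267). SMAD4, the common partner of the SMAD proteins, had a difference of 0.54 ± 0.18 (limma adjusted p = 0.317). FSTL1 and SMAD4 were singled out after their values were seen.

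INHA, whose product pairs with that of INHBA in inhibin A, overlapped between the groups. Its levels were 0.27, -0.08, 0.09, 0.46 and 0.70 in INHBA-high follicles, against 0.71, -0.19, -0.41, 0.68 and -0.46 in INHBA-low ones. C32 and C26 were about as high as follicle 8, the highest of its group. The difference was 0.22 ± 0.26, with a 95% interval of -0.33 to 0.77 (limma adjusted p = 0.834). TGFBR3, a co-receptor of inhibin, had a difference of -0.10 ± 0.07 (limma adjusted p = 0.686), and its 3 features did not share a direction. INHBB, ACVR2A and ACVR2B were not among the genes tested.

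Granulosa cell genes were mostly higher in INHBA-high follicles. Of 15 measured, 11 were higher (73.3% against 52.3% of all genes), with a median difference of 0.17. At an unadjusted p under 0.05, 5 were higher (33.3% against 5.32% of all genes), namely GJA1, CCND2, AMHR2, AMH and NR5A2. AMHR2 and AMH are also in the activin, inhibin and BMP list and CCND2 is also in the cell cycle list. The shares of these lists are therefore not separate observations. GJA1, the gap junction protein connexin 43, stood at 0.84, 0.18, 0.25, -0.27 and 0.94 in INHBA-high follicles, against -0.37, 0.36, -0.67, -0.40 and -0.66 in INHBA-low follicles. The groups overlapped through C35, which was low, and follicle 33, which was high, and the difference was 0.74 ± 0.23 (limma adjusted p = 0.291).

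AMH, a hormone of small growing follicles, behaved in a like way. It stood at 0.36, 0.16, 0.92, -0.58 and 0.89 in INHBA-high follicles, against 0.32, -0.55, -0.55, -0.28 and -0.49 in INHBA-low follicles. C35 was the lowest of the 10 follicles and C32 the highest of its group, so the ranges overlapped widely. The difference was 0.66 ± 0.26 (limma adjusted p = 0.384). GATM, an enzyme of creatine synthesis placed in the granulosa list, went the other way, and its groups did not overlap (-0.38 ± 0.09; limma adjusted p = 0.257).

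Aromatase and the FSH receptor showed next to no difference. CYP19A1 had a difference of -0.02 ± 0.06 with a 95% interval of -0.16 to 0.11. Its levels lay between -0.09 and 0.07 in INHBA-high follicles and between -0.09 and 0.17 in INHBA-low ones. The SE of a CYP19A1 level over its arrays was 0.13 to 0.15, about as large as the levels themselves, and the gene had 1 feature. A lack of difference in CYP19A1 therefore cannot be told from a lack of resolution. The level of FSHR was -0.02 ± 0.27 in INHBA-high and 0.02 ± 0.22 in INHBA-low follicles (SD, n = 5 each), a difference with an interval of -0.35 to 0.27. Among steroid synthesis genes 7 of 14 measured were higher, and CYP11A1, the side-chain cleavage enzyme, had the smallest p. It stood at 0.45, 0.95, 0.18, 0.26 and -0.02 in INHBA-high follicles, against -0.26, 0.05, -0.06, -0.43 and 0.38 in INHBA-low follicles. The levels overlapped and the difference was 0.43 ± 0.17 (limma adjusted p = 0.392). HSD3B1, which makes progesterone, had a difference of -0.05 ± 0.14, and POR, an electron donor of aromatase, one of 0.12 ± 0.06. Also not among the genes tested were CYP17A1, LHCGR and STAR.

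**Figure D2:**
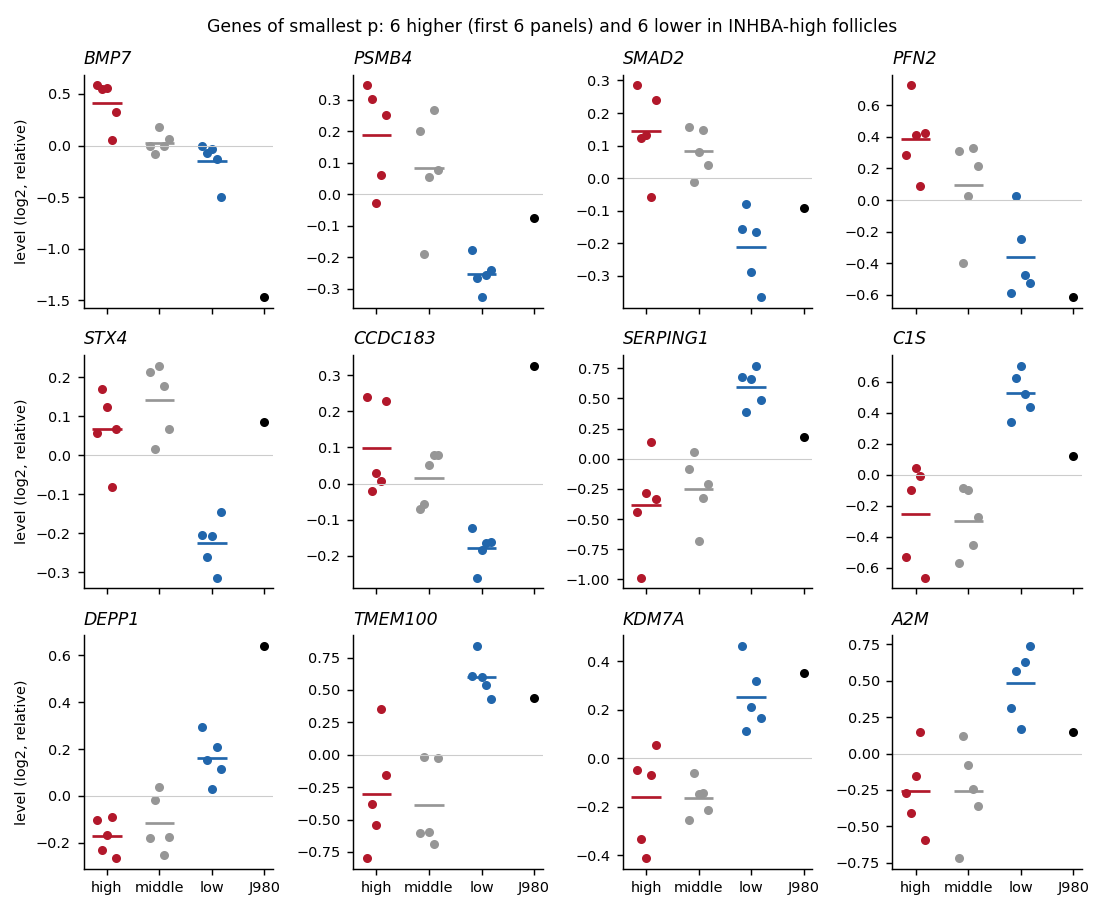
Levels of 12 genes in the 5 INHBA-high, 5 middle and 5 INHBA-low follicles and in J980, on the log2 scale relative to the mean of 16 follicles; points are follicles and bars are group means. The first 6 panels are the 6 genes of smallest p that were higher in INHBA-high follicles and the last 6 those that were lower. In none of the 12 do the INHBA-high and INHBA-low follicles overlap. The mean of the middle follicles lies nearer to the INHBA-high than to the INHBA-low mean in every panel but that of BMP7. For STX4, C1S, TMEM100, KDM7A and A2M it lies beyond the INHBA-high mean.

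Beside BMP7 and SMAD2, the 10 genes of smallest p that were higher in INHBA-high follicles were PSMB4, PFN2, STX4, CCDC183, ST3GAL4, MRPS6, MMS22L and RAB13. The groups did not overlap in any of the 10, and the ratio on all 4 shared arrays was above 0 for each, in genes chosen for their small p from the same arrays. PFN2, an actin-binding profilin, stood at 0.29, 0.73, 0.41, 0.09 and 0.43 in INHBA-high follicles, against -0.59, 0.02, -0.25, -0.47 and -0.53 in INHBA-low follicles. It had the largest difference of the 10, at 0.75 ± 0.16 (limma adjusted p = 0.257), and its ratios on the shared arrays were 0.52 to 0.67.

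PSMB4, a beta subunit of the proteasome core, stood at 0.35, 0.30, -0.03, 0.06 and 0.25 in INHBA-high follicles, against -0.18, -0.27, -0.33, -0.26 and -0.24 in INHBA-low follicles. The INHBA-low follicles lay close together, with an SD of 0.05, and the difference was 0.44 ± 0.09. ST3GAL4, which adds sialic acid to glycans, had a difference of 0.53 ± 0.12 and a slope of 0.63 ± 0.10 on INHBA and FST, and its level was -1.11 in J980. MRPS6, a protein of the mitochondrial ribosome, had one of 0.49 ± 0.11, and MMS22L, which acts in repair of broken replication forks, one of 0.44 ± 0.10. The remaining differences were 0.29 ± 0.06 for STX4, a membrane fusion protein, 0.28 ± 0.06 for CCDC183, and 0.22 ± 0.05 for RAB13, a small GTPase of membrane traffic. RAB13 alone among the 10 missed the threshold with array error only (limma adjusted p = 0.0875), and without the array of 33 and C12 its difference was 0.14.

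Among genes lower in INHBA-high follicles, 2 of the classical complement pathway had the smallest p of all. SERPING1, the inhibitor of the first complement component, stood at -0.45, -0.99, -0.29, 0.14 and -0.34 in INHBA-high follicles, against 0.68, 0.39, 0.66, 0.77 and 0.49 in INHBA-low follicles. The ranges were apart, and C35 was the highest INHBA-high follicle. The difference was -0.98 ± 0.17 (limma adjusted p = 0.257), and the 2 features gave -1.34 and -0.71. On the shared arrays the ratio was -1.14 for C12 over 33 and only -0.05 for C35 over 26.

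C1S, a protease of the first complement component, stood at -0.53, -0.10, 0.04, -0.01 and -0.66 in INHBA-high follicles, against 0.34, 0.62, 0.70, 0.52 and 0.44 in INHBA-low follicles. Every INHBA-low follicle was above 0.3 and no INHBA-high follicle reached 0.1. The difference was -0.78 ± 0.14 (limma adjusted p = 0.257), and all 4 shared arrays gave ratios below 0, from -1.41 to -0.70. A2M, a broad inhibitor of proteases, had a difference of -0.74 ± 0.16, with features of -1.31 and -0.17.

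TMEM100, a membrane protein that is a BMP target in mouse endothelium, stood at -0.80, -0.38, -0.54, 0.36 and -0.16 in INHBA-high follicles, against 0.61, 0.84, 0.60, 0.54 and 0.43 in INHBA-low follicles. The ranges came close through C35 alone, and the difference was -0.91 ± 0.19. PTGDS, which makes prostaglandin D2, stood at -0.52, -0.47, -0.55, 0.46 and -0.36 in INHBA-high follicles, against 0.62, 0.74, 0.49, 0.50 and 0.39 in INHBA-low follicles. Here C35 lay inside the INHBA-low range and the other INHBA-high follicles far below it. The difference was -0.84 ± 0.19 with C35 and -1.03 ± 0.15 without it (limma adjusted p = 0.257 and 0.0276).

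The other 5 of the 10 lower genes of smallest p were DEPP1, KDM7A, BCAP29, KLHDC8A and UBN1, and their groups did not overlap. Their differences were -0.33 ± 0.07 for DEPP1, a target of FOXO factors, -0.42 ± 0.09 for KDM7A, a histone demethylase, and -0.35 ± 0.08 for BCAP29, a protein of the endoplasmic reticulum membrane. KLHDC8A had -0.52 ± 0.12, and UBN1, of a histone chaperone complex, had -0.39 ± 0.09. KDM7A had only -0.20 without the array of 33 and C12, missed the threshold with array error only (limma adjusted p = 0.165) and was the only one of these 10 with a ratio above 0 on a shared array.

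**Figure D3:**
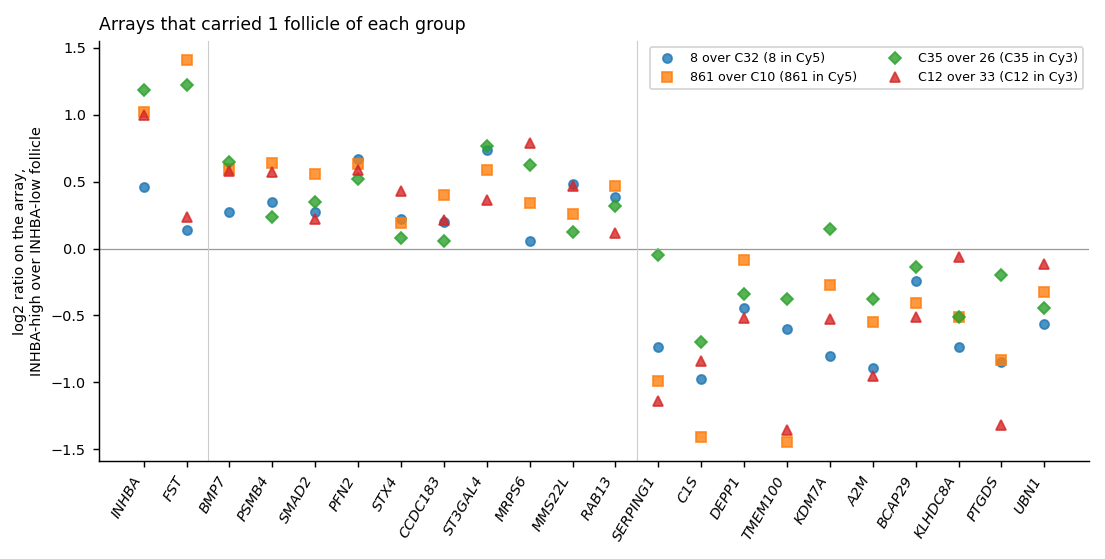
Log2 ratio of the INHBA-high to the INHBA-low follicle on each of the 4 arrays that carried both. Shown are INHBA, FST, the 10 genes of smallest p that were higher and the 10 that were lower. Symbols are arrays and the legend gives the dye of the INHBA-high follicle. The groups and the genes were chosen through levels fitted from these arrays among others, so the shared signs are no separate evidence. All 10 higher genes lie above 0 on all 4 arrays, and of the lower genes only KDM7A is above 0 on an array, at 0.14 for C35 over 26.

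Leukocyte genes were the list with the lowest median among those of more than 2 measured genes. Of 32 members of the leukocyte and erythrocyte list, 26 were lower in INHBA-high follicles, with a median difference of -0.21. There were 14 (43.8% against 5.13% of all genes) that were lower at an unadjusted p under 0.05, namely CD74, LAPTM5, C1QB, FCER1G, LCP1, CTSS, CSF1R, BOLA-DRA, BOLA-DRB3, CD3D, TYROBP, CD68, CORO1A and AIF1. They include genes of antigen presentation, of macrophages and of T cells. In RNA of whole tissue, fewer cells of a type and less RNA per cell cannot be told apart. The mean level of the list ran from -0.20 to 0.17 in INHBA-high follicles and from -0.06 to 0.35 in INHBA-low follicles. C35 was the highest INHBA-high follicle and C10 the lowest INHBA-low one, so the ranges overlapped.

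CD74, the invariant chain of MHC class II, stood at -0.17, -0.10, -0.24, 0.28 and -0.36 in INHBA-high follicles, against 0.53, 0.22, 0.14, 0.49 and 0.24 in INHBA-low follicles. Only C35 crossed into the INHBA-low range. The difference was -0.44 ± 0.11 (limma adjusted p = 0.257), -0.54 ± 0.09 without C35 (limma adjusted p = 0.0371), and 1 of its 5 features had the opposite sign. SRGN is a proteoglycan of leukocyte granules that other cells also make. It was the 1 member higher at an unadjusted p under 0.05 (3.1% against 5.32% of all genes). It was higher in INHBA-high follicles, at 0.68, 0.27, 0.40, 0.32 and 0.05 against -0.38, 0.30, -1.16, -0.45 and -1.01 in INHBA-low follicles, where only follicle 33 reached the INHBA-high range. Its difference was 0.89 ± 0.25 (limma adjusted p = 0.267) and both features gave 0.88 to 0.89.

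Of 7 immunoglobulin genes 4 were lower in INHBA-high follicles, and 3 of these, IGHM, IGHG1 and JCHAIN, had an unadjusted p under 0.05 (42.9% against 5.13% of all genes). IGHG1 stood at -0.00043, -0.04, -0.84, 0.15 and -0.80 in INHBA-high follicles, against 1.11, 0.54, -0.25, 1.73 and 0.93 in INHBA-low follicles. C26 and C32 were highest and C10 lay among the INHBA-high follicles, and the difference was -1.12 ± 0.34 (limma adjusted p = 0.289). IGHM had a difference of -0.85 ± 0.23 (limma adjusted p = 0.267). PECAM1, listed as an endothelial gene, had the largest difference of any gene, at -1.61 ± 0.47. Its level was 1.83, 0.79, -0.22, 2.38 and 1.10 in the INHBA-low follicles, and the order of these 5 follicles was the same for IGHG1. PECAM1 had 1 feature on the array.

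Most stromal and matrix genes were also lower. All 13 measured genes of smooth muscle and stroma were lower in INHBA-high follicles, when 52.3% of all genes were higher. They were lower by 0.01 to 0.52 on the log2 scale, with a median difference of -0.10. At an unadjusted p under 0.05, 2 were lower, S100A4 and MYLK (15.4% against 5.13% of all genes). Of 39 extracellular matrix genes 29 were lower, with a median of -0.13, and 10 were lower at an unadjusted p under 0.05 (25.6% against 5.13% of all genes) while 0 were higher. These were FBLN1, FMOD, MGP, COL14A1, COL6A2, COL6A1, ELN, TIMP3, COL6A3 and DCN, which include the 3 chains of type VI collagen.

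FBLN1, a fibulin of basement membranes, stood at -0.49, -0.01, 0.06, 0.10 and -0.47 in INHBA-high follicles, against 0.16, 0.60, 0.73, 0.46 and 0.31 in INHBA-low follicles. The groups did not overlap, all 4 features had the same sign, and the difference was -0.61 ± 0.18 (limma adjusted p = 0.267). FMOD, a proteoglycan that binds collagen, had a difference of -0.92 ± 0.28 (limma adjusted p = 0.289), with C35 at 0.49 in the range of the INHBA-low follicles. Of 13 endothelial genes, VCAM1, PECAM1 and CLDN5 were lower at an unadjusted p under 0.05 (23.1% against 5.13% of all genes) and 0 were higher. VCAM1 missed the threshold with array error only. The endothelial list had a median of -0.02. Its mean level was -0.17 to -0.03 in INHBA-high and 0.04 to 0.19 in INHBA-low follicles, without overlap.

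Defining markers of the cell types of the follicle were looked at beside these lists, as values with no test. Leukocyte markers were lower in 5 of 6 cases, with overlapping mean levels of -0.31 to 0.11 in INHBA-high and -0.10 to 0.39 in INHBA-low follicles. Markers of smooth muscle and stroma were lower in 6 of 6. Endothelial markers were lower in 3 of 3 measured, while the endothelial list of 13 genes split into 6 higher and 7 lower. The mean level of the smooth muscle and stroma markers was -0.19 to 0.08 in INHBA-high follicles and 0.06 to 0.13 in INHBA-low ones, and that of the endothelial markers -0.67 to 0.14 and 0.06 to 0.90. Granulosa markers were higher in 5 of 7 cases, with mean levels of -0.01 to 0.46 in INHBA-high and -0.31 to 0.22 in INHBA-low follicles. Of the theca markers 2 of 3 were higher, with mean levels of 0.0068 to 0.38 and -0.32 to 0.24, and of the erythrocyte markers 1 of 2, with -0.25 to 0.48 and -0.34 to 0.13. Both oocyte markers were lower, with -0.25 to 0.08 and -0.10 to 0.40. A log ratio holds no absolute level, so no marker can be called absent. The part of these markers in the other differences was not tested.

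**Figure D4:**
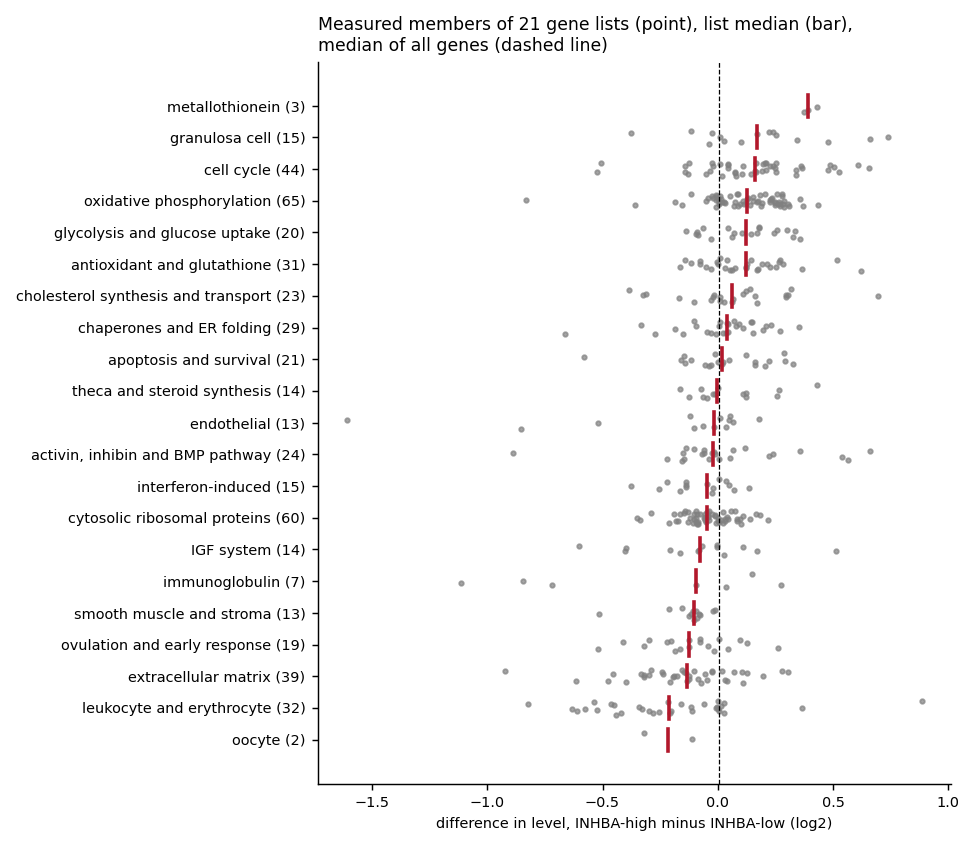
Difference in level between INHBA-high and INHBA-low follicles (log2) for the measured members of 21 gene lists, one point per gene, with the list median as a bar and the median of all genes, 0.01, as a dashed line; numbers in brackets are measured genes. Leukocyte and matrix members lie mostly left of the line (medians -0.21 and -0.13), cell cycle and oxidative phosphorylation members mostly right of it (0.16 and 0.13).

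Genes of energy metabolism were mostly higher in INHBA-high follicles. Of 65 oxidative phosphorylation genes 52 were higher (80% against 52.3% of all genes), with a median difference of 0.13. At an unadjusted p under 0.05, 20 were higher (30.8% against 5.32% of all genes) and 2 lower (3.08% against 5.13%). NDUFS4, a subunit of the first respiratory complex, stood at 0.56, 0.02, -0.0074, 0.48 and 0.06 in INHBA-high follicles, against -0.06, -0.04, -0.44, -0.30 and -0.22 in INHBA-low follicles. The groups did not overlap, but 3 of the INHBA-high follicles lay close to the upper INHBA-low ones. The difference was 0.43 ± 0.13 (limma adjusted p = 0.267) and 0.25 without the array of C26 and 33. The list mean was -0.04 to 0.16 in INHBA-high follicles and -0.14 to -0.03 in INHBA-low ones, with follicle 46 alone inside the INHBA-low range.

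Of 20 genes of glycolysis and glucose uptake 14 were higher, with a median of 0.12, and the list mean did not overlap between groups, at 0.08 to 0.12 in INHBA-high and -0.07 to 0.02 in INHBA-low follicles. GPI, the second enzyme of glycolysis, had a difference of 0.36 ± 0.11 (limma adjusted p = 0.281) and groups that did not overlap. ENO1 had 0.33 ± 0.12, but the 3 of its 4 features that could be fitted alone ranged from -0.20 to 0.71. The middle follicles did not lie between the groups here, since C13 and H893 had list means of -0.18 and -0.09 and follicles 31 and C22 of 0.12 and 0.11. Antioxidant genes were higher in 23 of 31 cases, with a median of 0.12. GPX4, which reduces lipid peroxides, was at 0.23, 0.24, 0.26, -0.0025 and 0.16 in INHBA-high follicles, against -0.28, -0.18, -0.33, -0.17 and 0.03 in INHBA-low follicles, overlapping through C35 and follicle 26 (difference 0.36 ± 0.09; limma adjusted p = 0.267).

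Cell cycle genes were higher in 34 of 44 cases (77.3% against 52.3% of all genes), with a median difference of 0.16. At an unadjusted p under 0.05, 11 were higher (25% against 5.32% of all genes), namely CDCA3, CCNB1, CCND2, BIRC5, PLK1, KIF20A, PRC1, UBE2C, CCNA2, AURKB and MCM7, most of which act in mitosis. CDCA3, which promotes entry into mitosis, stood at 0.07, 0.23, 0.48, -0.22 and 0.41 in INHBA-high follicles, against 0.13, -0.13, -0.56, -0.56 and -0.55 in INHBA-low follicles. C10, C26 and 26 were low and C32 was not, and the difference was 0.53 ± 0.16 (limma adjusted p = 0.29). CCND3, a D-type cyclin, was the 1 member lower at an unadjusted p under 0.05 (2.27% against 5.13% of all genes). Its difference was -0.51 ± 0.17 (limma adjusted p = 0.305). The list mean was highest in the middle follicles 31 and C22, at 0.26 and 0.24, and was -0.03 to 0.08 in INHBA-high and -0.19 to -0.02 in INHBA-low follicles.

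**Figure D5:**
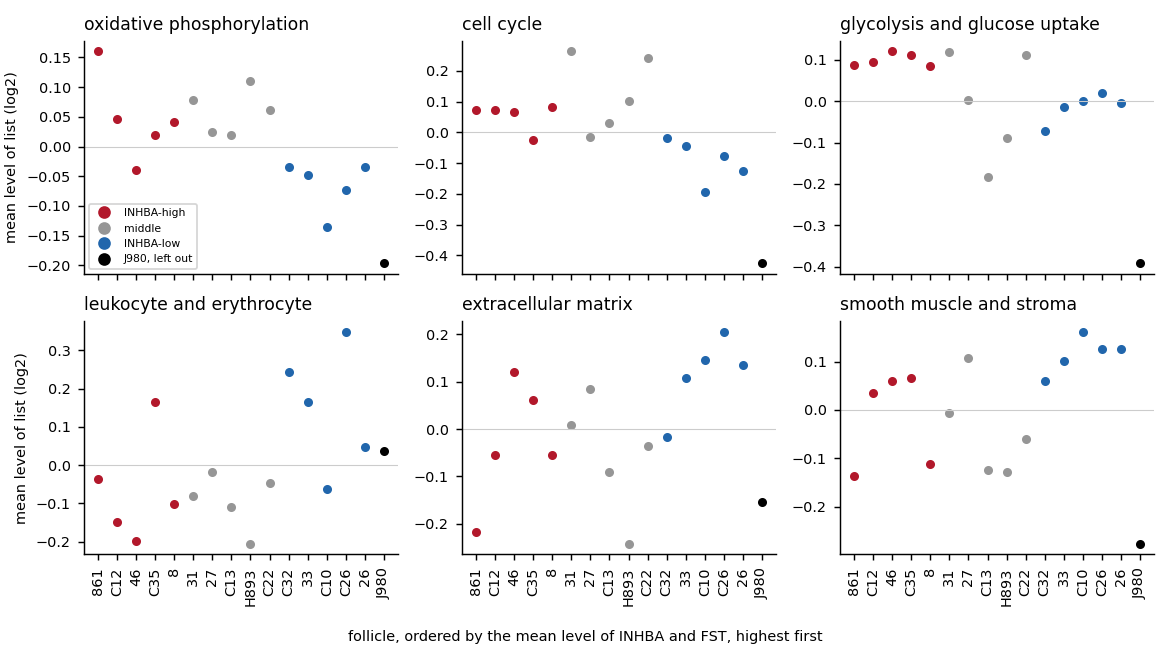
Mean level of the measured members of 6 gene lists in each follicle (log2, relative to the mean of 16 follicles), ordered by the mean of INHBA and FST; colours are the groups. For oxidative phosphorylation the INHBA-high follicles lie at -0.04 to 0.16 and the INHBA-low ones at -0.14 to -0.03; for leukocyte genes C35 is the highest INHBA-high follicle at 0.17, and C10 the lowest INHBA-low one at -0.06.

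Among genes of survival and death, BCL2L1 and BAX had the smallest p. BCL2L1, which opposes apoptosis, stood at -0.14, -0.55, -0.18, 0.24 and -0.31 in INHBA-high follicles, against 0.20, 0.53, 0.46, 0.59 and 0.18 in INHBA-low follicles, where only C35 overlapped. Its difference was -0.58 ± 0.14 (limma adjusted p = 0.257) over 21 arrays, and the 1 of its 2 features that could be fitted alone gave -1.41. The difference was -0.69 ± 0.12 without C35 (limma adjusted p = 0.0471). BAX, which promotes apoptosis, had a smaller difference of 0.22 ± 0.06 (limma adjusted p = 0.267), and its groups did not overlap. It missed the threshold with array error only, and its ratio on the array of 8 over C32 was -0.08. Of the 21 members measured 11 were higher and 10 lower, with a median of 0.02. At an unadjusted p under 0.05, 5 were higher (BAX, DIABLO, MCL1, DAPK1 and CLU, 23.8% against 5.32% of all genes). BCL2L1 was the 1 member lower by this measure (4.76% against 5.13%).

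Several lists are described more briefly. In the IGF system 10 of 14 genes were lower, none at an unadjusted p under 0.05. IGFBP2 was at 0.82, 0.51, -0.67, 0.24 and 0.50 in INHBA-high follicles, against 0.20, 0.07, -0.37, -0.21 and -0.86 in INHBA-low follicles, and follicle 46 was the exception in its group (difference 0.51 ± 0.25; limma adjusted p = 0.501). IGFBP3 had -0.40 ± 0.20. Genes of ovulation and early response were lower in 14 of 19 cases, with a median of -0.12. ZFP36, CITED2 and KLF6 were lower at an unadjusted p under 0.05 (15.8% against 5.13% of all genes), and IER3 was higher (5.26% against 5.32%). ZFP36, an mRNA decay factor, had a difference of -0.52 ± 0.18 (limma adjusted p = 0.345). IER3 was higher by 0.26 ± 0.09, with features of 0.51 and 0.0085.

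TNFAIP6, a matrix protein of the ovulating follicle, had its lowest group mean in the middle of the ranking. It stood at 1.84, -0.44, -0.11, 0.59 and 1.07 in INHBA-high follicles and at 1.28, -0.38, 1.58, 1.83 and 0.21 in INHBA-low follicles. The middle follicles had a mean of -1.02. The INHBA-high and INHBA-low follicles covered much the same range and differed by -0.32 ± 0.56 (limma adjusted p = 0.903).

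Metallothionein genes varied as widely within the groups. MT1A was at 1.83, -0.80, 1.01, -1.03 and -0.24 in INHBA-high follicles, against 0.63, -0.70, -1.10, -0.37 and 0.17 in INHBA-low follicles (difference 0.43 ± 0.50), so the spread inside each group exceeded the difference. MT3 had 0.39 ± 0.42. For the interferon-induced list the median difference was -0.05, and IFI44L and PSMB8 had differences of -0.22 ± 0.11 and -0.17 ± 0.09. Cytosolic ribosomal proteins had a median of -0.05 over 60 genes, with RPL7 at -0.34 ± 0.13 and RPLP2 at 0.18 ± 0.07. The 4 features of RPL7 that could be fitted alone ranged from -1.42 to 0.09, and 1 of them was above 0. Cholesterol genes had a median of 0.06 over 23, with ACAT2 at 0.17 ± 0.07 and NPC2 at -0.31 ± 0.13. NPC2, HMGCS1 and SCD were lower at an unadjusted p under 0.05 (13% against 5.13% of all genes), and ACAT2 was higher (4.35% against 5.32%). Chaperones had a median of 0.04 over 29, with CRELD2 at 0.35 ± 0.13 (0.12 without the array of C26 and 33) and DNAJB1 at 0.15 ± 0.06. The oocyte genes ZP3 and ZP2, the only ones of their list measured, had -0.32 ± 0.20 and -0.11 ± 0.07. None of these had an adjusted p under 0.05.

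J980 was in neither group of the contrast. Its arrays also carried follicles of the INHBA-high, middle and INHBA-low groups, and they were among those from which the levels were fitted. J980 was lower than any INHBA-low follicle for BMP7, at -1.47. Of the 10 higher genes of smallest p, it was also below the INHBA-low mean for PFN2, ST3GAL4, MRPS6, MMS22L and RAB13. It was above that mean for PSMB4, SMAD2, STX4 and CCDC183, at -0.08, -0.09, 0.085 and 0.33. For CCDC183 it was above every INHBA-high follicle. For SERPING1, C1S and A2M it stood at 0.18, 0.12 and 0.15, between the group means, and for GATM at 0.71, above both. The levels of J980 and of the other follicles come from shared arrays and are not independent.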

How the data were processed

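The log2 values analysed are log ratios of the 2 channels, 1 per feature and array, as the authors deposited them for 24 arrays, with array medians near 0; base 2 is an assumption. Images were read with GenePix Pro 4.0.1.12, per the labels; for background correction, spot filter, normalization method, log base and ratio direction, the sources used here give nothing. Spot intensities were not used, so the number of arrays limits the precision.

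Array medians were subtracted, features with exactly 1 gene symbol were averaged per gene, and genes with values on at least 20 arrays were kept. Follicle levels were fitted by least squares from the array titles, with a dye term, and compared with limma 3.58.1 (R 4.3.3), two-sided, with Benjamini-Hochberg adjustment over 9029 genes. Each follicle came from another heifer and counted as 1 replicate. Figures were drawn with matplotlib 3.10.9. The test was tried on simulated data.

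The follicles and the 21 gene lists were chosen with earlier results of these data known. Genes named are the 10 of smallest p in each direction, 2 of smallest p per list, and a set of activin, steroid and granulosa genes; other names are list members counted at an unadjusted p under 0.05 or calls of another fit. Alternatives changed the ranking, group size, centring, scaling, dye term, filter, features, error model and identifier prefix, and left out each follicle and each array; a paired fit of 4 arrays was added after the data were seen. The probe annotation gave 13605 of 17418 features 1 symbol, 829 several and 2984 none.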

Additional observations from a re-analysis of the deposited data

Results flagged for a closer look

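In 5 of 134 groups of named genes a follicle stood apart from the other 4 of its group, when chance gives about 1 in 20 groups. Follicle C35 did so among INHBA-high follicles for PTGDS, at 0.46 when the others were at -0.55 to -0.36, and for PSMB8, at 0.24 when the others were at -0.16 to -0.07. Follicle 861 did so among INHBA-high follicles for FSHR, at -0.48 when the others were at 0.02 to 0.19. Follicle 26, the lowest in INHBA and FST of the INHBA-low follicles, did so for BMP7, at -0.50 when the others were at -0.13 to -0.0031, and for MRPS6, at -0.43 when the others were at -0.18 to -0.10.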

How the results depend on the processing

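The count of genes past the adjusted threshold was 0 in the comparison and under all alternatives but 4. It was 6 for the slope on INHBA and FST, 462 with array error only, 15 without follicle C35, and 1 (SERPING1) without the array of follicles 26 and C35. Leaving out a follicle or an array gave 0 to 15. Genes at an unadjusted p under 0.05 numbered 359 with 7 follicles in each group and 1519 with array error only, and 476 to 1236 when a follicle or an array was left out, against 943 in the comparison. The lowest of these counts were 476 without the array of C26 and 33 and 483 without the array of C10 and 26. Genes whose groups did not overlap numbered 95 when ranked by FST alone, 407 with 4 follicles in each group and 4 with 7, and 67 to 526 when a follicle or an array was left out, against 158; fewer follicles in a group overlap less by construction.

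Of 67 named genes, 61 kept the sign of their difference under each of the 53 alternatives that gave them a value; 9 genes lacked a value when all 24 arrays were required. TNFAIP6 had 0.42 with J980 ranked and a slope of 0.071, HSD3B1 had 0.13 with J980 ranked and 0.024 with 4 follicles in each group, and with 1 feature per gene CD74 had 0.22 and ENO1 -0.20. Leaving out a follicle or an array gave -0.11 to 0.046 for CYP19A1, -0.14 to 0.069 for HSD3B1 and -0.17 to 0.076 for FSHR. The cause of these shifts was not tested. In 24 named genes the difference moved by over 1.5 times, or changed sign, when a follicle or an array was left out. A paired fit of the 4 arrays that carry a follicle of each group, added after the data were seen, called 0 of 8729 genes (650 at an unadjusted p under 0.05), with a smallest limma adjusted p of 0.504 after Benjamini-Hochberg adjustment. It gave 0.18 for TNFAIP6, 0.056 for CYP19A1, 0.028 for HSD3B1 and 0.035 for FSHR.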

Other observations

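Genes of the constitutive proteasome, looked at after the value of PSMB4 was seen, were higher in INHBA-high follicles in 22 of 31 cases, when 52.3% of all genes were higher, with a median difference of 0.14. At an unadjusted p under 0.05, 12 were higher and 1, PSMD7, was lower, when 5.32% and 5.13% of all genes were. In 6 (PSMB4, PSMB7, PSMD8, PSMD6, PSMD2 and PSMB5) all INHBA-high follicles lay above all INHBA-low ones, as in 1.01% of all genes. Of these, PSMB7, PSMD6, PSMD2 and PSMB5 missed the threshold with array error only. The list was made because of a member's value, so these shares are a description. None passed the adjusted threshold.

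The largest differences after that of PECAM1 were those of ORMDL2, at -1.52 ± 0.47 (SE), CTSH, a lysosomal protease, at -1.31 ± 0.40, SLC35D2, a nucleotide sugar transporter, at -1.25 ± 0.44, and JPH4, at -1.13 ± 0.30. These genes were chosen after their values were seen, and their limma adjusted p were 0.267 to 0.345 with Benjamini-Hochberg adjustment.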
